A study of Mus musculus with 3 samples.

Results

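The interferon response and Irf genes are 45 of the 50600 annotated genes in total RNA-seq of mouse T-helper 1 cells. They were taken from a fixed list of symbols, each matched to its Ensembl gene identifier in the count tables, and all 45 were found. The list holds 27 genes of the type I interferon kind (here called type I-type genes), 8 GTPases known for induction by interferon gamma, 8 interferon regulatory factors (Irf) and the 2 chains of the type I interferon receptor. The cells were primary cells of strain C57BL/6NJ labelled as T-helper 1, with sex not collected and age unknown. There was 1 group of 3 libraries, biological replicates 1, 2 and 3, which are separate biosamples under a shared donor identifier. The table headers carried a time of 0 hours, and no treatment is named in the labels. With 1 group there is no contrast of conditions, so genes were compared within each library and libraries with each other. Each level is a TPM, the deposited count divided by gene length and rescaled to the same total in every library. Any p-value measures only the spread between these 3 libraries, which may be technical.

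Interferons are secreted proteins that warn cells of infection. Type I interferons (alpha and beta) bind the Ifnar1 and Ifnar2 chains, and the kinases at that receptor activate a complex that holds Irf9 and binds a DNA element called the interferon-stimulated response element (ISRE). Interferon gamma, the cytokine for which T-helper 1 cells are known, uses another receptor and acts through a DNA element called the gamma-activated site (GAS), and it induces Irf1. Cells outside an infection are known to keep many of these genes at a low tonic level.

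The promoters of the members are shown first, because these elements are what the groups of the list are known to respond through. RefSeq promoter windows (GRCm38.p6, 250 bases before and 50 after each annotated start) were available for 34 of the 45 members. The ISRE-like motif searched was GAAANNGAAA on both strands, and the GAS-like motif was TTCNNNGAA, which is its own reverse complement. Matches of both may overlap. A window with an ISRE-like match was found for 17 of the 34 members, where 3.99% of all 27025 genes with a window have one. A GAS-like match was found for 13 of 34, where 9.55% of all genes have one. The 120 bases before the start of 8 members are printed 5′ to 3′ on the gene's strand with every match in capitals. Isg15 and Ifit1 stand for the type I-type genes, Gbp2, Gbp7, Igtp, Irgm2 and Irgm1 for the GTPases, and Irf1 for the Irf factors. The windows are chr4:156200819-156200938 on the minus strand for Isg15, chr19:34640769-34640888 on the plus strand for Ifit1, chr3:142620543-142620662 on the plus strand for Gbp2, chr3:142530216-142530335 on the plus strand for Gbp7, chr11:58199436-58199555 on the plus strand for Igtp, chr11:58214857-58214976 on the plus strand for Irgm2, chr11:48871421-48871540 on the minus strand for Irgm1, chr11:53769894-53770013 on the plus strand for Irf1.
Isg15: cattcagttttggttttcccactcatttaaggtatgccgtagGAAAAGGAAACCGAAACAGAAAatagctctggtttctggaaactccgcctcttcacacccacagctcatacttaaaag
Ifit1: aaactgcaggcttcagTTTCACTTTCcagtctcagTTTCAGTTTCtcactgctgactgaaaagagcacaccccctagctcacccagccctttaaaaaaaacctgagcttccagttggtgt
Gbp2: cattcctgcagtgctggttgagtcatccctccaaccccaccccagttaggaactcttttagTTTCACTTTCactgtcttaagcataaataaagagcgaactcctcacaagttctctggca
Gbp7: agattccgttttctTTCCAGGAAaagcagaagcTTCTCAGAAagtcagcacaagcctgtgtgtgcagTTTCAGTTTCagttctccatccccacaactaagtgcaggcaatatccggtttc
Igtp: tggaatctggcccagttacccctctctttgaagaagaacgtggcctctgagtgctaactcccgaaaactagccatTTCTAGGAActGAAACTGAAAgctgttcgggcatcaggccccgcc
Irgm2: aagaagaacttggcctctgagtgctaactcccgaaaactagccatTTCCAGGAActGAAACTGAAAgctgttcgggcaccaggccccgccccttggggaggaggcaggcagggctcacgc
Irgm1: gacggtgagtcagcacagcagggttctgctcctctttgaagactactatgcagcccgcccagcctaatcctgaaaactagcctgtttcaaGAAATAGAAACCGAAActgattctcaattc
Irf1: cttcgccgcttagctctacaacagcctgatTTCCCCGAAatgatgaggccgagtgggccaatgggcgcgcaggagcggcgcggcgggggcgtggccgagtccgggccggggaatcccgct

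Isg15, a ubiquitin-like protein, has 3 overlapping ISRE-like matches between bases -78 and -57 from the start. Ifit1, which binds viral RNA, has 2 separate ones. Igtp and Irgm2, neighbouring GTPase genes on chromosome 11, both have a GAS-like match that ends 2 bases before an ISRE-like match, at bases -45 to -25 in Igtp and -75 to -55 in Irgm2. Their windows also share an identical run of 55 bases outside the ISRE-like match. The matches of these 2 genes may thus not be independent in the counts below. Gbp7 has 2 GAS-like matches and 1 ISRE-like match in the same stretch. By group, the ISRE-like motif was present in all 6 GTPases with a window, in 10 of 18 type I-type genes, in 1 of 8 Irf factors (Irf2) and in neither receptor chain. The GAS-like motif was present in 3 of 6 GTPases (Gbp7, Igtp, Irgm2), 5 of 18 type I-type genes, 3 of 8 Irf factors (Irf1, Irf2, Irf8) and both receptor chains. Outside the receptor chains, the 17 genes with an ISRE-like match had a median of 16.0 TPM and the 15 without one 28.6 TPM. The medians were 28.5 TPM for the 11 genes with a GAS-like match and 23.9 TPM for the 21 without. A match is a run of letters and was not tested as a binding site.

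**Figure D1:**
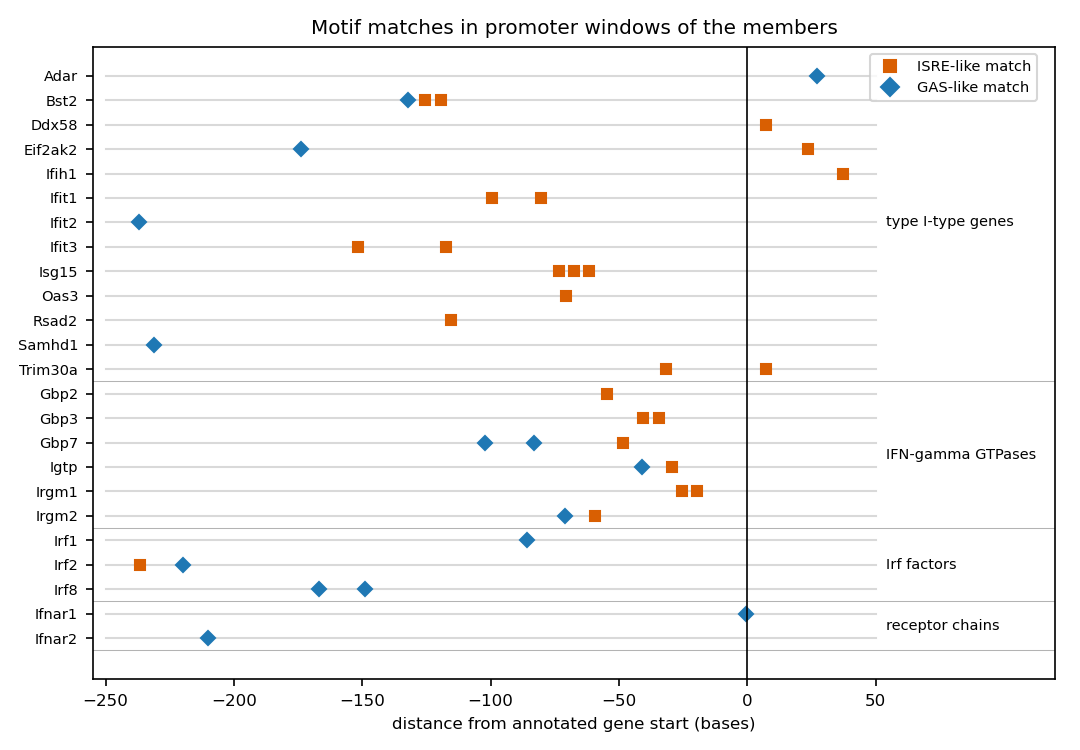
Position of ISRE-like (squares) and GAS-like (diamonds) matches in the promoter windows of the 24 members with a match, as distance from the annotated gene start in bases. Grey lines are the 300-base windows and the vertical line marks the start. The GTPase matches lie before the start in all 6 genes, while Ddx58, Eif2ak2, Ifih1 and Trim30a have ISRE-like matches after it.

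Depth was 3647366 counts in replicate 1, 4305077 in replicate 2 and 2510319 in replicate 3. Counting used 1 strand, and the orientation of the reads is not given in the sources used here. Genes with exons that overlap an exon of the other strand are 16.2% of all genes. They took 63.1%, 53.8% and 76.5% of the counts in replicates 1, 2 and 3. Among the members, 12 have such an overlap (Irf1, Irf3, Irf5, Irf7, Usp18, Dhx58, Sp110, Gbp2, Parp9, Dtx3l, Eif2ak2 and Adar), and each is named with its overlapping partner below. Fragments from the gene and its partner cannot be told apart in these members, and the part the overlap has in their values was not tested. All 10 T cell markers reached 1 TPM in every library, and so did the 6 naive T cell markers. Of 7 T-helper 1 markers only Il12rb2 and Hopx did, both with an opposite-strand overlap. Tbx21, the factor that defines the lineage, had 1, 3 and 0 counts, and Cxcr3 had 0 in all 3.

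Nearly all members were detected. At least 1 TPM in every library was reached by 40 of the 45, a share of 88.9%, while 41.6% of all 21764 protein-coding genes reached it. By group these were 23 of 27 type I-type genes, all 8 GTPases, 7 of 8 Irf factors and both receptor chains. The 5 that did not are Mx1, Mx2, Rsad2, Oasl2 and Irf8. Without the 12 members that have an overlap the count was 28 of 33. None of the 45 had 0 counts in all 3 libraries.

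**Figure D2:**
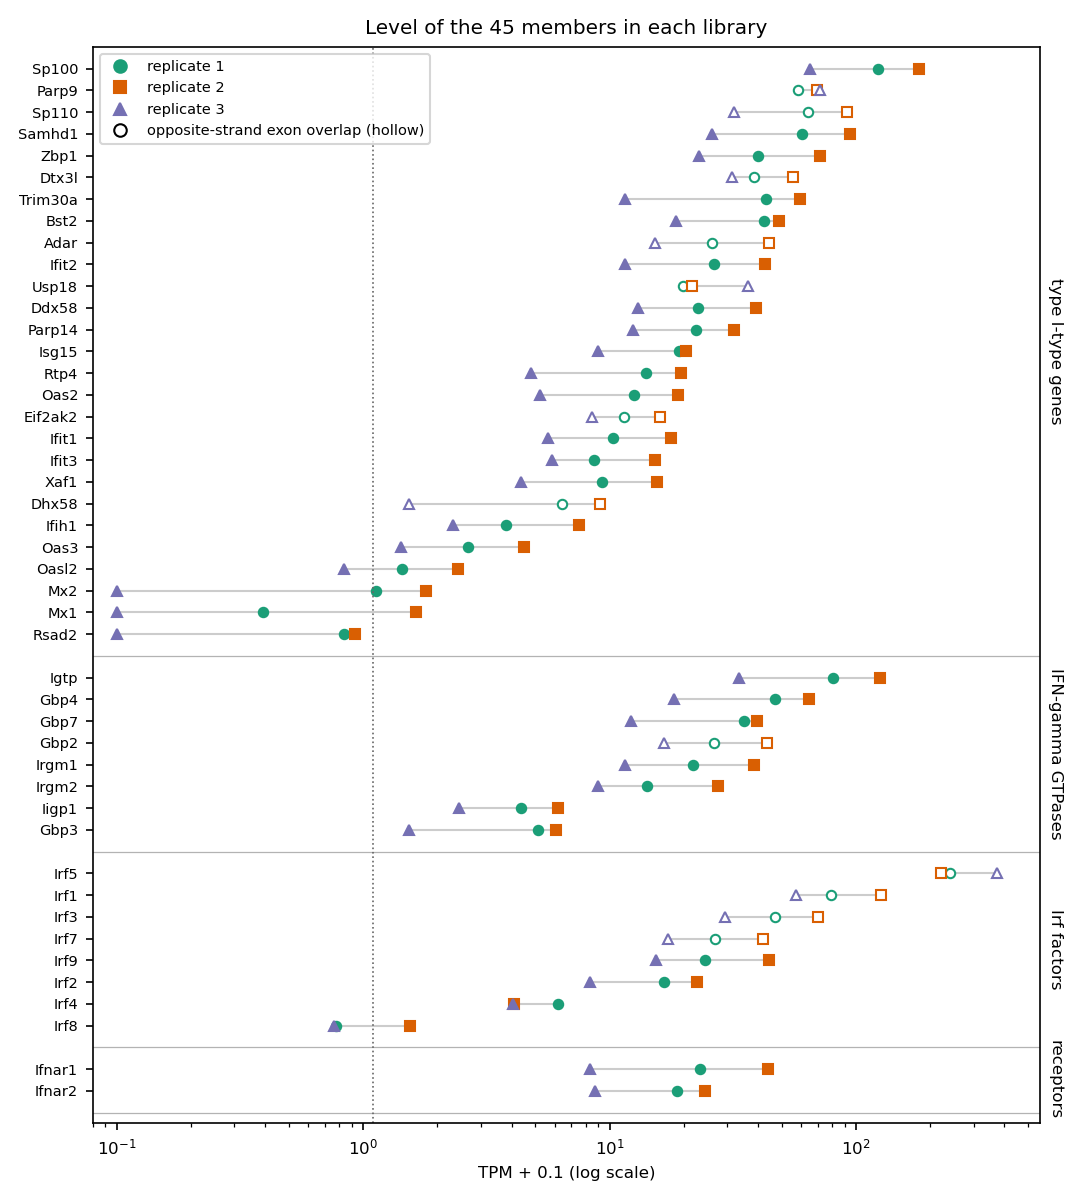
Level of each of the 45 members in the 3 libraries (TPM + 0.1, log scale), ordered by mean within each group. Hollow symbols are the 12 members with an opposite-strand exon overlap and the dotted line marks 1 TPM. Replicate 3 is the leftmost point for most members, and Irf5, Usp18 and Parp9 are the members with replicate 3 farthest right.

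The receptor chains were present at similar levels. Ifnar1 (chromosome 16), the chain bound by the kinase Tyk2, was at 23.1, 44.0 and 8.20 TPM in replicates 1, 2 and 3 (mean 25.1 ± 18.0, SD, n = 3). Ifnar2, the high-affinity chain on the same chromosome, was at 18.7, 24.2 and 8.64 TPM. Both were highest in replicate 2 and lowest in replicate 3. Of the interferon gamma receptor chains, Ifngr1 was above Ifnar1 in all 3 libraries, with a mean of 35.4 ± 20.2 TPM, and Ifngr2 was at 19.9 ± 11.3 TPM and above Ifnar2 in 2 of 3. Ifnar2 also shares 315 exonic bases with a gene on its own strand, Gm21970, and fragments on both are uncertain.

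The 8 Irf factors spanned from 0.930 to 279 TPM. Irf5, known for its role in myeloid and B cells, was the highest of the 45 members by TPM, at 241, 221 and 374 TPM in replicates 1, 2 and 3, from 1316, 1259 and 1624 counts. Its replicate 3 is the highest although that library is the shallowest. Irf5 (chromosome 6) shares 411 exonic bases with Tnpo3 of the other strand, a nuclear import receptor with 237, 380 and 106 raw counts. The log2 ratio of TMM-scaled counts, replicate 3 over replicate 2, was -0.29 for Tnpo3 and 1.91 for Irf5. The summed level of 7 myeloid markers was 81.2, 68.0 and 95.9 TPM, nearly all of it from Csf1r, which has an overlap of its own. The myeloid markers Cd14, Adgre1, S100a8 and S100a9 had 0 counts in all libraries and Lyz2 had 1 count. Of 7 B cell markers, Ighm was at 221 ± 140 TPM and lowest in replicate 3, and Cd79a was at 33.2, 48.3 and 49.6 TPM, with a log2 ratio of TMM-scaled counts of 1.19 for replicate 3 over replicate 2. Neither has an opposite-strand overlap. The B cell markers Ms4a1, Igkc and Pax5 had 0 counts in all libraries, and the 7 markers summed to 271, 401 and 123 TPM. The part of other cells in the Irf5 value was not tested.

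Irf1, a factor induced by interferon gamma, was at 78.7, 127 and 56.7 TPM (87.3 ± 35.7, SD, n = 3), with 135 exonic bases shared with Gm17334. Gm17334 had 1881, 1694 and 2151 counts, more than the 589, 986 and 337 of Irf1, in a gene model of 907 bases. Irf3, which is present in most cells and acts downstream of nucleic acid sensors, was at 46.8, 69.8 and 29.2 TPM and shares 88 bases with Bcl2l12. Irf7, which amplifies type I interferon production, was at 26.7, 41.9 and 17.2 TPM and shares 45 bases with Phrf1. These 3 factors all had the order replicate 2, replicate 1, replicate 3 in TPM, as did the median log2(TPM + 0.1) of protein-coding genes at 1 TPM or more (3.77, 4.27 and 2.90 in replicates 1, 2 and 3). On counts scaled by TMM sizes, replicate 1 was the lowest for all 3. The 4 remaining factors have no opposite-strand overlap.

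Irf9, the DNA-binding part of the complex activated by type I interferon, was at 24.4, 44.2 and 15.3 TPM, and 123 of its exonic bases overlap Rnf31 on the same strand. Irf2, an antagonist of Irf1 at shared sites, was at 16.5, 22.6 and 8.23 TPM. Irf4, which is induced by T cell receptor signals, was low at 6.08, 4.01 and 3.97 TPM from 54, 37 and 28 counts. Irf8, known from myeloid cells and B cells, had 9, 20 and 7 counts, or 0.678, 1.45 and 0.664 TPM. Seen as an order, Irf5 was above Irf1, Irf1 above Irf3 and Irf3 above Irf7 in every library. Irf7 and Irf9 were not ordered, with Irf7 higher in 2 of 3 libraries and a log2 difference of 0.08 ± 0.13 (SD, n = 3). Irf9 stood above Irf2, Irf2 above Irf4 and Irf4 above Irf8 in all 3.

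The interferon gamma GTPases were present in every library. They comprise immunity-related GTPases (IRG), which act at the vacuoles of intracellular parasites, and guanylate-binding proteins (GBP). Igtp (chromosome 11) was the highest, at 80.7, 125 and 33.4 TPM (79.7 ± 45.8, SD, n = 3) from 307, 495 and 101 counts. Irgm1 was at 21.8, 38.6 and 11.4 TPM, Irgm2 at 14.1, 27.4 and 8.89 TPM and Iigp1 at 4.26, 6.05 and 2.36 TPM. In TPM all 4 IRG genes had replicate 2 highest and replicate 3 lowest, again the order of protein-coding genes in general, and on TMM-scaled counts replicate 3 was lowest in 3 of 4 (not Irgm2). By TPM their order from Igtp to Irgm1, Irgm2 and Iigp1 was the same in all 3 libraries. Irgm1 and Irgm2 encode regulators that restrain the effector GTPases. Igtp and Irgm2 share 162 exonic bases on the same strand, which makes fragments there uncertain.

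Of the GBP genes, Gbp4 led at 46.6, 64.4 and 18.1 TPM from 657, 946 and 203 counts. Gbp7 was at 34.9, 39.5 and 12.2 TPM and Gbp2 at 26.4, 43.4 and 16.5 TPM. These neighbours were not ordered, since Gbp7 was above Gbp2 in 1 of 3 libraries. Gbp3 was lowest, at 5.04, 5.94 and 1.43 TPM. Gbp2 shares 24 exonic bases with Mir6381 of the other strand. Gbp4 and Gbp7 also overlap genes on their own strand, which makes their split of fragments uncertain. GBP genes are related in sequence, and the part of this in their counts was not tested.

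Among the type I-type genes, Sp100 stood highest by mean TPM. Sp100, a component of nuclear bodies that represses incoming viral DNA, was at 123, 181 and 64.9 TPM (123 ± 57.9, SD, n = 3) from 1744, 2674 and 733 counts. Its relative Sp110 was at 63.8, 91.9 and 31.9 TPM, below Sp100 in every library by 0.98 ± 0.04 on the log2 scale. Sp110 shares 392 exonic bases with G530012D18Rik, a model of 420 bases with 2418, 2456 and 2397 counts. Trim30a, a regulator of inflammatory signalling, was at 42.9, 59.2 and 11.4 TPM. Xaf1 and Rtp4 were at 9.64 ± 5.60 and 12.7 ± 7.43 TPM.

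The direct antiviral effectors ranged widely. Samhd1, which depletes nucleotides needed by retroviruses, was at 60.0, 94.6 and 26.0 TPM, and Bst2 (tetherin), which holds budding virus at the cell surface, was at 42.4, 48.6 and 18.5 TPM. Ifit2, an RNA-binding antiviral protein, was at 26.5, 42.8 and 11.4 TPM and stood above Ifit1 and Ifit3 in every library. Ifit1 and Ifit3 were at 11.1 ± 6.12 and 9.83 ± 4.86 TPM and were not ordered. The lowest of the 45 members are also effectors. Mx1, a GTPase that blocks viral nucleocapsids, had 2, 11 and 0 counts, Mx2 had 7, 12 and 0, and Rsad2 (viperin) had 6, 7 and 0. Mx1, Mx2 and Rsad2 were thus at or under 1.69 TPM in every library, while Samhd1 and Bst2 were above 18 TPM in all. Whether the alleles of this strain are intact was not examined for any of them.

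The RNA and DNA sensors were mostly at intermediate levels. Zbp1, a sensor of Z-form nucleic acid that can trigger cell death, was at 40.0, 71.3 and 22.9 TPM. Ddx58 (RIG-I) was at 22.8, 39.2 and 12.9 TPM, above its relatives Dhx58 and Ifih1 (MDA5) in every library. Dhx58, at 6.33, 9.05 and 1.43 TPM, shares 141 bases with Dhx58os and was not ordered against Ifih1, at 3.71, 7.44 and 2.21 TPM. Eif2ak2 (PKR), a kinase that halts translation on double-stranded RNA, was at 11.3, 16.0 and 8.38 TPM and has 221 exonic bases of overlap, mostly with Gm26637. Adar, an RNA editor that masks self RNA from these sensors, was at 26.0, 44.3 and 15.2 TPM. Adar has 1365 bases of overlap with Chrnb2, a neuronal acetylcholine receptor subunit, and Chrnb2 had 2948, 2928 and 3016 counts against 398, 704 and 184 for Adar. The oligoadenylate synthetases, which activate RNA decay, were ordered in all 3 libraries as Oas2 (12.1 ± 6.85 TPM), Oas3 (2.76 ± 1.55) and Oasl2 (1.46 ± 0.80).

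Genes of ubiquitin-like and ADP-ribose modification form the last subgroup. Parp9 was at 57.8, 69.2 and 71.4 TPM and its partner Dtx3l, an E3 ligase that binds Parp9, at 38.3, 55.3 and 31.3 TPM. These genes lie head to head on chromosome 16 and share 458 exonic bases. Parp14, another ADP-ribosyltransferase, was at 22.4, 32.0 and 12.3 TPM with no opposite-strand overlap. Isg15 itself was at 19.0, 20.3 and 8.85 TPM from only 27, 30 and 10 counts. Usp18, the protease that removes Isg15 and damps receptor signalling, was at 19.8, 21.6 and 36.2 TPM and was highest in replicate 3. Usp18 shares 124 exonic bases with the lincRNA Gm44148, a model of 316 bases that had 166, 147 and 187 counts.

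Compared as groups, the 3 kinds of gene lay within about 1 log2 unit. The median of log2(TPM + 0.1) over the members was 3.92 ± 0.66 (SD, n = 3 libraries) for the type I-type genes, 4.48 ± 0.86 for the GTPases and 4.71 ± 0.70 for the Irf factors. It was 3.65 ± 0.69 for all protein-coding genes at 1 TPM or more in every library and -0.83 ± 0.73 for all protein-coding genes. The GTPase median was above the type I-type median in all 3 libraries, by 0.34, 0.94 and 0.41, and without the overlapping members the difference was 0.91 ± 0.16. The Irf median was above the type I-type median by 0.43, 1.08 and 0.87 in replicates 1, 2 and 3 (as type I-type minus Irf, -0.79 ± 0.33). That order did not hold without the overlapping members, which removes Irf1, Irf3, Irf5 and Irf7: the type I-type median was then 0.45 ± 0.51 above that of the 4 remaining Irf factors. GTPases minus Irf factors likewise went from -0.23 ± 0.20 to 1.36 ± 0.56. No test was made over members, and 3 libraries could give no exact sign-flip p under 0.25.

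**Figure D3:**
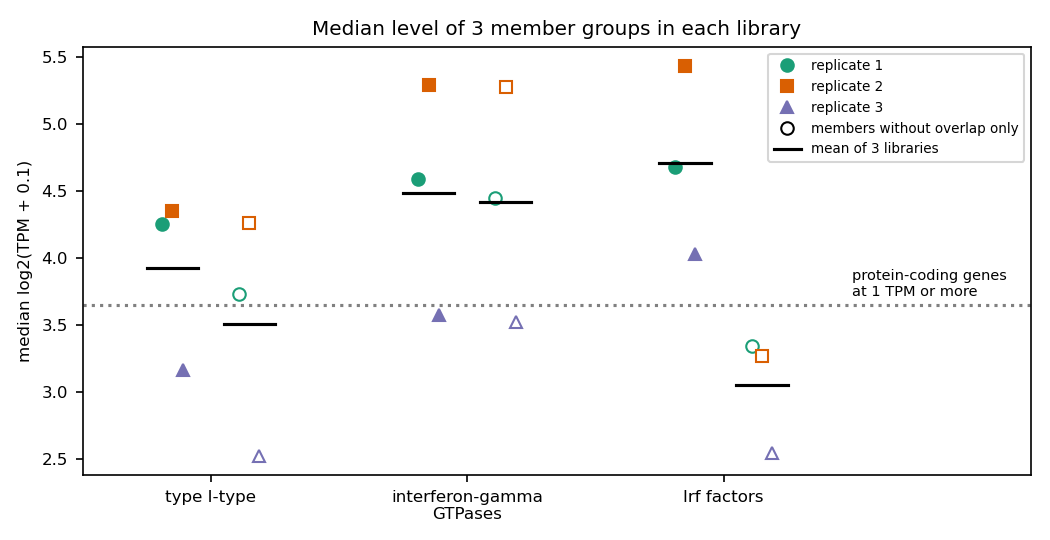
Median log2(TPM + 0.1) of the type I-type genes, the GTPases and the Irf factors in each library, for all members (filled) and for members without an opposite-strand exon overlap (hollow). Black bars are means of 3 libraries and the dotted line is the mean of the median of protein-coding genes at 1 TPM or more. The Irf median moves from 4.71 to 3.05 when the 4 overlapping factors are left out.

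The 3 libraries differed in these genes as they did in genes in general. By the first test below, the share of members called was no larger than that of all genes. Of 41 members with enough counts to test, 24 (58.5%) varied beyond counting error (Poisson chi-square test on counts scaled by edgeR's TMM sizes, Benjamini-Hochberg adjusted p under 0.05), and 62.4% of all 10662 genes tested did. With a negative binomial that holds the common dispersion of 0.14, 2 members (Irf5 and Usp18) passed, with adjusted p of 0.0414 and 0.0364, while 4.31% of all genes passed. Read against all genes, the first count depends on the scaling and the libraries. With TMM sizes set from genes without an overlap, 13 of 41 members were called beside 53.6% of all tested genes. Without replicate 2 it was 13 of 38 members beside 49.7%, and without replicate 3 it was 13 of 41 beside 28.1%. The test compares these libraries and says nothing of conditions.

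Most of the members had less in replicate 3 after scaling by TMM sizes. These sizes come from all tested genes, those with an overlap included, and the ratios below depend on them. With sizes from genes without an overlap, 13 of the 41 members varied beyond counting error and not 24, beside 53.6% of all tested genes. Ratios under those sizes are not given here. Replicate 3 had the lowest scaled count in 28 of the 41 tested members, and in 46.7% of all tested genes. Among members without an overlap it was lowest in 25 of 29, where 61.1% of all tested genes without an overlap were. The median log2 ratio of replicate 3 over replicate 2 was -0.39 over the 41 members, -0.49 over the 29 without an overlap, and -0.36 over all tested genes without one. The T cell markers moved with them, with a median of -0.61 and replicate 3 lowest in 10 of 10, and the part of cell makeup in the members' ratios was not tested. In bulk RNA fewer cells of a type and less RNA per cell cannot be told apart. The ratio also differed by strand class, with a median of 1.02 over all tested genes with an overlap. The T cell marker Cd3e was at -0.68 and its opposite-strand partner Gm48719 at 1.69. The part of the strand counted in the members' ratios was not tested either. Lowest in this ratio were Dhx58 (-1.42), Ifnar1 (-1.26) and Trim30a (-1.21), and the value of Dhx58, which has an overlap, rests on 7 counts in replicate 3.

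The upward exceptions were few. Of the tested members, 5 varied beyond counting error and had their highest scaled count in replicate 3, namely Irf4, Irf5, Usp18, Parp9 and Dtx3l. Their log2 ratios of replicate 3 over replicate 2 were 1.15 for Irf4, 1.91 for Irf5, 1.90 for Usp18, 1.20 for Parp9 and 0.34 for Dtx3l. For Irf4 and Dtx3l this holds on TMM-scaled counts only, since by TPM replicate 3 was their lowest. All but Irf4 have an opposite-strand overlap. The median ratio was 1.02 over all tested genes with an overlap and -0.05 over the 12 members with one, of which 7 were below 0. The 28 counts of Irf4 in replicate 3 make its ratio imprecise. Irf4 was nearly as high in replicate 1, with a log2 ratio of replicate 1 over replicate 2 of 1.04 on TMM-scaled counts. It thus stood out by a low replicate 2 rather than by a high replicate 3. Without replicate 2, Irf4 was not called as varying beyond counting error (Poisson chi-square test, adjusted p of 0.88).

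**Figure D4:**
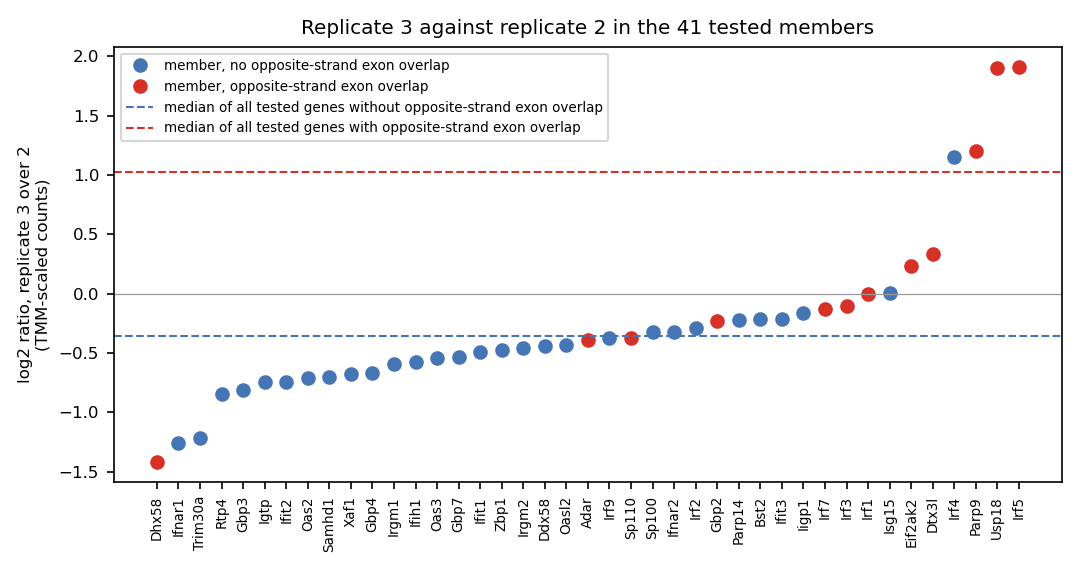
Log2 ratio of TMM-scaled counts, replicate 3 over replicate 2, for each of the 41 tested members in rising order, coloured by opposite-strand exon overlap. Dashed lines are the medians of all tested genes without (-0.36) and with (1.02) an overlap. Irf5, Usp18 and Parp9 lie above the upper line, and Irf4 is the one member without an overlap beside them.

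The rest of the pathway was read from lists of 134 further genes, of which 132 were found and 83 reached 1 TPM in every library. The ligands had few or no counts on the strand counted. Of 19 interferon genes, 16 had 0 counts in all 3 libraries, Ifnb1 and the interferon alpha genes on the list among them, and a count of 0 at Ifnb1 allows up to 2.12, 2.04 and 2.68 TPM (3 counts) in replicates 1, 2 and 3. Ifng had 1, 3 and 0 counts, and none of the 19 reached 1 TPM in all libraries. The receptor and Jak-Stat list was expressed in 14 of 15 genes, led by the kinase Jak1 (167 ± 89.3 TPM), the phosphatase Ptpn6 (150 ± 49.5) and the feedback inhibitor Socs3 (87.2 ± 18.2), of which Jak1 and Ptpn6 have an opposite-strand overlap. Stat2, a signal transducer of type I interferon, was at 16.9 ± 5.27 TPM.

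Upstream sensing genes reached 1 TPM in 10 of 16, led by Tmem173 (STING, 65.8 ± 28.6 TPM), the kinase Ikbke (60.5 ± 33.8, with an overlap) and the DNA sensor Aim2 (47.5 ± 6.41). Other interferon-induced genes reached it in 36 of 48, led by Slfn2 (185 ± 88.2 TPM), Ifi27 (143 ± 24.5) and Mndal (142 ± 77.4). By mean TPM these exceed every type I-type member. Other interferon gamma genes reached it in 18 of 26, led by the proteasome genes Psme1 (191 ± 55.5 TPM), Psmb9 (130 ± 10.4) and Psme2 (105 ± 50.9), and Psme1 and Psmb9 have an overlap. The chemokine genes Cxcl9, Cxcl10 and Cxcl11, induced by interferon gamma, had 0 counts in every library. Of 8 further Irf genes and cofactors 5 reached 1 TPM, led by Batf (37.3 ± 9.28 TPM), a partner of Irf4, and Spi1 and Spib, myeloid and B cell partners of Irf4 and Irf8, had 0 counts.

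**Figure D5:**
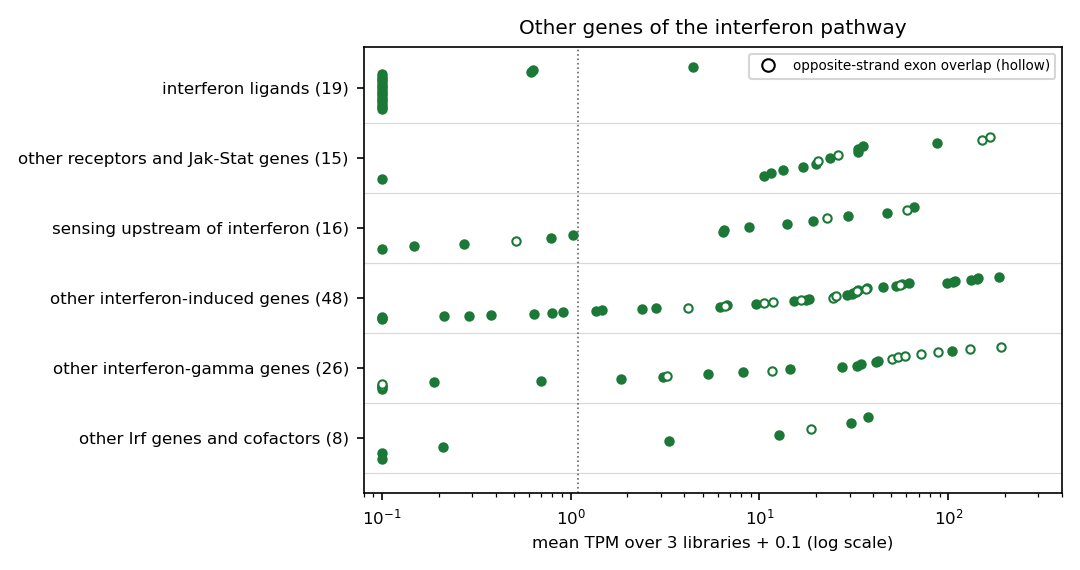
Mean TPM over 3 libraries (+ 0.1, log scale) of 132 further genes of the interferon pathway in 6 lists, with the number of genes in parentheses and hollow points for genes with an opposite-strand exon overlap. The dotted line marks 1 TPM. Points stacked at the left edge have 0 counts, 16 of them among the 19 ligands.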

How the data were processed

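Total RNA-seq of 3 libraries was analysed, with replicate numbers from the labels. The deposited tables hold raw counts of fragments per gene, made with featureCounts 1.4.6-p4 (paired, both ends mapped, strand setting 1, exons by gene identifier, GENCODE M13), per the file headers. The build is mm10, per the labels. Library kit, trimming and aligner version: not given in the sources used here. Depth sets the precision of low counts, and floors cover counting error only.

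TPM were computed from counts and deposited length. Exon overlaps on the opposite strand were found with bedtools 2.31.1. Symbols came from a table of gene names by Ensembl identifier (50376 of 50600). Variation between libraries was tested over genes kept by filterByExpr (edgeR 4.0.16 TMM sizes, R 4.3.3) by a Poisson chi-square test, first tested on simulated data; DESeq2 1.42.0 size factors were an alternative. Group medians got no test.

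The members, lists, motifs and tests were chosen with earlier results of these data known. All members could be named; of other pathway genes, the 3 highest per list, those with 0 counts, Stat2, Ifngr1, Ifngr2, Ifng, Ifnb1 and overlap partners. Some results are not reported here. Of other cell types, B cell (2 of 7 markers at 1 TPM or more in all libraries), dendritic cell (1 of 7), NK (0 of 4), CD8 T cell (1 of 2) and myeloid (1 of 7) markers were read.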

Additional observations from a re-analysis of the deposited data

How the results depend on the processing

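No paired analysis was possible because the series holds 1 group. The number of members at 1 TPM or more stayed within 1.5 times under the alternatives run, from 28 (33 members without overlap) to 42. Without the members that overlap an opposite-strand exon, type I-type minus Irf medians went from -0.79 to 0.45 and GTPases minus Irf from -0.23 to 1.36, both reversed. The Irf median then was 3.05 and GTPases minus type I-type 0.91. With CPM in place of TPM, the GTPase median was 5.56, the Irf median 5.99, type I-type minus Irf -1.44, GTPases minus type I-type 1.01 and GTPases minus Irf -0.43, since CPM do not divide by length. With TPM taken over genes without overlap alone the medians were 5.86 for the type I-type genes, 6.42 for the GTPases and 6.65 for the Irf factors, because fewer genes share the total. The same scaling, added for single members after the data were seen, raised the mean TPM of all 45 by 2.89 to 4.39 times, so printed levels are relative to the genes that share the total. The number of members that varied beyond counting error, 24, was 21 with DESeq2 size factors (58.1% of all genes), 25 with no filter (42.6%), 13 with sizes from genes without overlap (53.6%), 2 with the negative binomial (4.31%), and 13 to 21 with 1 replicate left out (28.1% to 60.8% of all genes). The cause was not tested. Isg15, Dhx58, Iigp1, Gbp3, Ifit3, Mx1, Mx2, Rsad2, Oasl2 and Irf8 rest on few counts, and their levels are imprecise.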

Other observations

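Families of interferon-induced genes beside the members were read after their values were seen. The Ifi200 family on chromosome 1 (173350879 to 173942672 in mm10), sensors and regulators that bind DNA, had 7 of 10 genes at 1 TPM or more in every library and a summed level of 472, 715 and 217 TPM in replicates 1, 2 and 3. Its highest genes were Mndal (142 ± 77.4 TPM, SD, n = 3) and Ifi209 (98.7 ± 61.0), and none of the 10 has an opposite-strand exon overlap. The 4 Schlafen genes on chromosome 11, of which 1 has an opposite-strand exon overlap, are known for roles in T cell quiescence. All were at 1 TPM or more and summed to 394, 620 and 207 TPM. Slfn2 was at 185 ± 88.2 and Slfn1 at 132 ± 69.3 TPM. By contrast the 3 Ifitm genes, which block viral entry, summed to 1.62, 3.76 and 0 TPM. In the Ifi200 and Schlafen sums replicate 2 was highest and replicate 3 lowest, which is also the order of the median protein-coding gene at 1 TPM or more.

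Ifnk, a keratinocyte interferon, was the highest of the 19 interferon genes, at 10, 1 and 7 counts in replicates 1, 2 and 3, a mean of 4.35 ± 3.24 TPM. Its replicate 2 level of 0.634 TPM is under the 3-count floor of 1.90 TPM. It has no annotated opposite-strand exon overlap, but introns of the other strand were not searched. These few counts do not settle whether the cells express Ifnk, and their source was not tested.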
